A study of Mus musculus with 8 samples.

Results

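Motile cilia genes of ependymal cells were examined in the hippocampus of adult male Muta Mouse, a transgenic mouse strain that carries a bacterial reporter gene for mutation studies. The 35 listed genes were matched by symbol through the RefSeq accession of each array probe, out of 20660 genes named on the array in this way. Control mice (n = 4) received the olive oil vehicle, and BaP-exposed mice (n = 4) received benzo[a]pyrene (BaP), a polycyclic aromatic hydrocarbon, in that vehicle, given by gavage on 3 consecutive days at a daily 70 mg/kg bw. The tissue was taken 24 hr after the last dose. Cy5-labeled RNA from the whole hippocampus of 1 mouse was hybridized to 1 array against Cy3-labeled universal mouse reference RNA, with no dye swap. The comparison asks whether exposure to BaP altered the expression of these genes.

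A motile cilium beats by means of an axoneme, a ring of microtubule doublets around a central pair. Outer and inner dynein arms slide the doublets, while radial spokes, the central pair apparatus and the nexin-dynein regulatory complex control that movement. In the brain, ependymal cells line the ventricles, and their cilia move cerebrospinal fluid. Foxj1 is the transcription factor that switches on the motile cilia program, and RFX factors bind the X-box in the promoters of many cilia genes.

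All values below are log2 ratios of a sample's Cy5 signal over the reference's Cy3 signal, after background correction and loess normalization within each array, so that ratios of different probes are not levels to be compared between genes. The brightest probe in Cy5 stood for each gene. Per array, 56.6% to 67.4% of spots had a Cy5 signal well above background, and the array of Control 1 had 1483 spots marked as outliers, against 310 to 371 on the others. All 8 arrays were on 1 slide. For the 4 arrays in row 2 of that slide (Control 3, Control 4, BaP 3 and BaP 4), titles and source names disagree on the group. The titles were used, and they run with the numbers of the mice. Grouped by title, limma called 3 of all tested probes, and grouped by source name 0. With the source names in their place, the median difference of the motile cilia genes changed from 0.30 to -0.09 on the log2 scale, so the directions below rest on the titles (*Fhad1*, at 0.016, and *Tmem212* kept theirs, while *Foxj1*, *Drc7*, *Dnah6*, *Pifo*, *Mlf1*, *Tekt1* and *Rfx3* did not).

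Of the 35 genes, 32 had a probe, and 27 had a probe whose Cy5 signal was well above background on 4 or more of the 8 arrays and were tested. *Dnah12*, *Ccdc40* and *Lrrc23* were not matched to a probe. Of the tested genes, 24 were well above background on all 8 arrays, while *Drc7* was on 7, *Tekt2* on 5 and *Dnah10* on 4. The remaining 5 genes were dim. *Rfx2* was well above background on 3 arrays, *Dnah9* on 2, *Ak7* and *Sntn* on 1 each, and *Spag17* on 0. *Sntn*, which encodes sentan of the cilium tip, had a Cy5 signal of 70.5 to 105 over a local background of 65 to 70. Transcripts of *Foxj1* and most axoneme genes were therefore detected in whole hippocampus, whereas *Rfx2*, *Sntn*, *Ak7*, *Dnah9* and *Spag17* were at or near background on most arrays. Which cells held these transcripts was not tested. In the controls, 26 of the 27 tested genes had a mean ratio above the reference, compared with 54.3% of 15090 named genes, and *Mlf1* was the exception. The reference was dim for several of them. Its Cy3 signal was well above background on 0 of 8 arrays for *Drc7*, *Dnah5*, *Ccdc39* and *Meig1*, on 2 for *Dnah6*, and on 3 for *Dnah2*, *Dnali1* and *Tmem212*. These ratios thus rest on a reference near background. In Cy5 alone, *Drc7* differed by 0.74 and *Dnah6* by 0.70 between the groups. These arrays measure whole tissue, so fewer ciliated cells and less RNA per cell cannot be told apart.

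No motile cilia gene was called, which takes a 1.5-fold change and an adjusted p of 0.05 in limma's test with Benjamini-Hochberg adjustment over all probes (0 of 27, against 0.0199% of all named genes). Most were nevertheless higher in BaP-exposed mice by mean: 20 of 27 were higher, where 50.5% of named genes were. Their median log2 difference was 0.30, against 0.00 over named genes. The differences ran from -0.34 for *Spef2* to 0.78 for *Drc7*, with standard errors of 0.09 to 0.43. Adjusted p values from limma lay between 0.528 and 0.997. At an unadjusted p of 0.05, limma passed 2 genes, *Fhad1* and *Pifo*, where 9.47% of named genes did. A change of at least 1.5-fold was seen for *Drc7* and *Dnah6*, or 2 of 27, where 1.42% of named genes changed as much. The control and BaP-exposed mice overlapped at every tested gene, so that 0 genes separated the groups, against 5.37% of named genes. The lowest exact permutation p (2-sided, over 70 assignments of the mice) was 0.0857, and the smallest that 4 mice against 4 allow is 0.0286.

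**Figure D1:**
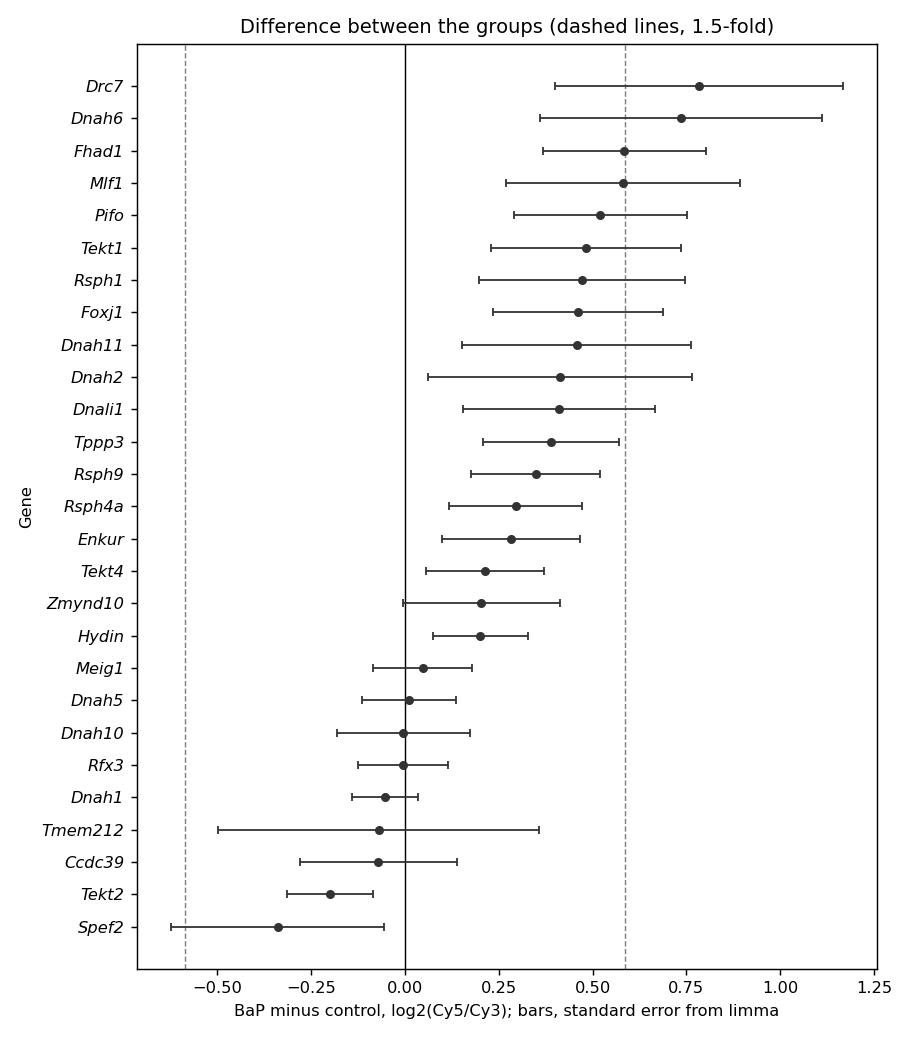
Difference between BaP-exposed (n = 4) and control (n = 4) mice for each of the 27 tested genes, as log2(Cy5/Cy3) on the x axis with the standard error from limma. Only *Drc7* and *Dnah6* lie beyond the dashed 1.5-fold line, and 20 of the 27 points lie above 0.

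Single mice moved these counts. The number of genes at an unadjusted p of 0.05 in limma was 7 without BaP 1, 13 without BaP 4 and 3 without Control 1, but 1 without Control 2 and 0 without BaP 2, BaP 3 or Control 4. Of all probes, 10.6% were at that p without BaP 1, 10.7% without BaP 4, 9.41% without Control 1 and 5.28% to 7.21% in the fits with 0 or 1 gene. The number with a 1.5-fold change was 8 without BaP 1, 9 without BaP 4, 3 without Control 2 and 4 without Control 1 or Control 3, but 1 without BaP 2 or Control 4 and 0 without BaP 3. Of all probes, 1.79% changed 1.5-fold without BaP 1, 1.85% without BaP 4 and 0.715% to 1.64% when any other mouse was left out. The groups ceased to overlap at 4 genes without BaP 4, and at 1 gene without BaP 1, Control 1 or Control 3, where 10.8%, 10.0%, 9.28% and 9.55% of all probes did in the same 4 fits. Without BaP 3 the median difference was 0.16. Loess normalization centered each array along the range of signal, whereas median centering used 1 value per array over its spots, dim ones included. With each array centered on its median, the median of all tested probes moved to 0.17 and that of the motile cilia genes to 0.38.

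Among the transcription factors, *Foxj1* was higher by mean in BaP-exposed mice without passing the test. Its log2 ratio was 1.66, 1.58, 1.69 and 1.47 in Control 1 to 4, and 1.85, 2.21, 2.75 and 1.44 in BaP 1 to 4. BaP 1, BaP 2 and BaP 3 lay above every control, while BaP 4 lay below every control. The difference was 0.46 with a standard error of 0.23 (adjusted p = 0.592 from limma), and the exact permutation test gave p = 0.171. *Rfx3*, an RFX factor needed for ciliogenesis, was 1.21, 1.46, 1.49 and 1.59 in the controls and 1.58, 1.57, 1.15 and 1.43 in the BaP-exposed mice. The groups were intermixed, with BaP 3 the lowest of all 8 mice, and the difference was -0.01 (standard error 0.12, adjusted p = 0.994 from limma). Its dimmer probes gave 0.36 and 0.20, so the direction for *Rfx3* depended on the probe. *Rfx2*, another RFX factor of the ciliated cell program, was at -0.92, -0.61, -0.23 and -0.30 in the controls and at -0.39, -0.03, -0.16 and -0.43 in the BaP-exposed mice, and was too dim to be tested.

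The dynein genes did not move as a block. Of the outer arm heavy chains, *Dnah11* had a difference of 0.46 and *Dnah5* of 0.01, with adjusted p of 0.674 and 0.988 from limma. *Dnah5*, whose loss is a common cause of immotile cilia, thus had nearly equal means in both groups, 1.54 ± 0.24 in controls and 1.55 ± 0.13 in BaP-exposed mice (SD, n = 4 each). Among the inner arm genes, *Dnah6* had the greatest difference. It was 2.79, 2.67, 2.25 and 1.48 in Control 1 to 4 and 3.02, 3.53, 3.62 and 1.96 in BaP 1 to 4. BaP 1, BaP 2 and BaP 3 exceeded every control, and BaP 4 fell below Control 1, Control 2 and Control 3. The difference was 0.74 with a standard error of 0.38 (adjusted p = 0.601 from limma), which was less than the SD of 0.76 among BaP-exposed mice. *Dnah2* and *Dnali1*, the latter a light intermediate chain, differed by 0.41 each, whereas *Dnah1* differed by -0.05 and *Dnah10* by 0.00 on the log2 scale. *Zmynd10*, which helps to assemble dynein arms in the cytoplasm, differed by 0.20 (standard error 0.21).

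*Drc7*, a subunit of the nexin-dynein regulatory complex, had the greatest difference of the 27 genes. Its probe is shown because the result rests on this 1 oligonucleotide, as printed in the study's supplementary list of array probes, 5′ to 3′.
Drc7: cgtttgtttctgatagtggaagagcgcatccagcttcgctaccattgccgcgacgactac
The ratio was 0.59, 0.53, 0.89 and 0.11 in Control 1 to 4 and 0.27, 1.70, 2.40 and 0.88 in BaP 1 to 4. BaP 2 and BaP 3 were above all controls, BaP 4 was level with the highest control and BaP 1 was below all controls but Control 4. The difference was 0.78 with a standard error of 0.38 (adjusted p = 0.592 from limma), and the SD was 0.93 among BaP-exposed mice and 0.32 among controls. With spots required to be well above background on all 8 arrays, *Drc7* left the test. *Ccdc39*, a protein of the molecular ruler that spaces the dynein arms, showed no such pattern and differed by -0.07 (standard error 0.21).

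The 3 tested radial spoke genes were all higher by mean. *Rsph1* differed by 0.47, *Rsph9* by 0.35 and *Rsph4a* by 0.30, with adjusted p of 0.592 to 0.648 from limma. The dimmer probes of *Rsph1* and *Rsph4a* gave 0.26 and 0.18, the same direction at a smaller size. Neither central pair gene passed the test. *Hydin*, whose product forms a projection of the central pair, differed by 0.20 (standard error 0.13), but by -0.05 in the Cy5 channel alone. *Spef2* differed by -0.34 (standard error 0.28, adjusted p = 0.741 from limma), the lowest value of the 27, and its mean rests on 3 controls because the spot of Control 3 was marked as an outlier.

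The tektins are filament proteins of the doublet wall. *Tekt1* had ratios of 3.28, 3.15, 3.50 and 2.71 in the controls and 3.12, 4.11, 4.11 and 3.23 in the BaP-exposed mice. BaP 2 and BaP 3 stood above every control, and BaP 1 and BaP 4 lay within the control range. The difference was 0.48 with a standard error of 0.25 (adjusted p = 0.611 from limma). A dimmer *Tekt1* probe gave 0.98, a wider difference in which Control 1, at 1.26, stood far below the 2.72 to 3.29 of the other controls. In the Cy5 channel alone, the brighter probe differed by 0.63 and the dimmer by 0.60. In the Cy3 channel of the reference alone, they differed by 0.26 and -0.39, so the wider ratio arose in the reference channel. The dimmer oligonucleotide, from the same supplementary list, reads as follows.
Tekt1, dimmer probe: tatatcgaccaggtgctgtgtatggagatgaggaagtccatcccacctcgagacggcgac
*Tekt4* differed by 0.21 and *Tekt2* by -0.20, with adjusted p of 0.639 for the latter from limma. *Tppp3*, a tubulin polymerization protein, differed by 0.39 (standard error 0.18) and *Enkur*, which encodes the axonemal protein enkurin, by 0.28 (standard error 0.18).

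Among the remaining genes, *Fhad1*, which encodes a forkhead-associated domain protein, had the lowest p of the 27 genes in limma. Its probe is printed for that reason.
Fhad1: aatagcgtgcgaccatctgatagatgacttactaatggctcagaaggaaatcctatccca
*Fhad1* was 1.74, 1.84, 2.26 and 1.69 in the controls and 1.99, 2.79, 2.94 and 2.15 in the BaP-exposed mice. Only Control 3 reached into the BaP range, above BaP 1 and BaP 4. The difference was 0.58 with a standard error of 0.22, just under 1.5-fold (unadjusted p = 0.0223 and adjusted p = 0.528 from limma), and the exact permutation test gave p = 0.0857. *Pifo*, which acts at the base of the cilium, was 0.54, 0.09, 0.41 and -0.03 in the controls and 0.14, 1.12, 1.24 and 0.58 in the BaP-exposed mice. BaP 1 again lay inside the control range, and the difference was 0.52 with a standard error of 0.23 (unadjusted p = 0.0473 and adjusted p = 0.570 from limma). *Mlf1*, a gene first named for its part in a leukemia fusion, was the one tested gene with a control mean below the reference. It was -0.47, -1.21, -1.16 and -1.33 in the controls and -1.12, -0.03, 0.27 and -0.97 in the BaP-exposed mice, with BaP 2 and BaP 3 above the highest control and a difference of 0.58 (standard error 0.31). *Meig1* differed by 0.05 at its brightest probe and by -0.13 at a dimmer one, and *Tmem212*, which encodes a membrane protein, by -0.07. *Tmem212* had ratios of 2.87, 2.62, 1.94 and 1.22 in the controls and 2.49, 1.83, 2.96 and 1.1 in the BaP-exposed mice, and so varied more widely within each group than between them. *Fhad1*, *Pifo*, *Mlf1*, *Tekt1* and *Tmem212* were chosen for these values after they were seen.

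**Figure D2:**
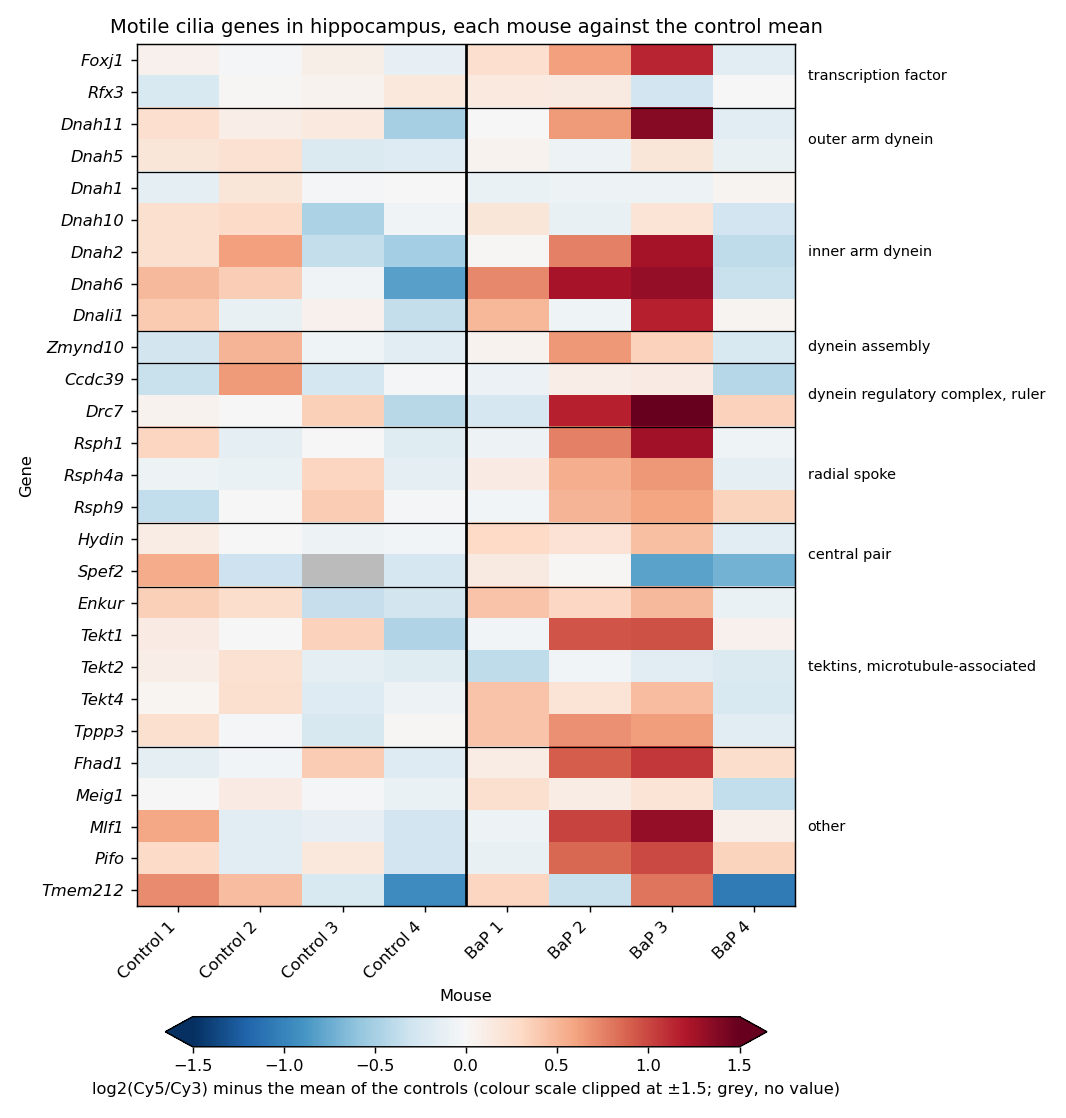
Log2(Cy5/Cy3) of each tested gene (rows, by role) in each mouse (columns) minus the mean of the controls, in color, with gray for the missing value of *Spef2* in Control 3. BaP 2 and BaP 3 hold most of the deep red cells, and no cell of BaP 4 is deep red.

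The spread among BaP-exposed mice followed the individual animals. Among the 26 genes with a value on every array, BaP 3 was the highest of the 8 mice for 17, Control 2 for 5, BaP 2 for 2, and BaP 1 and Control 4 for 1 each. BaP 3 was the highest mouse for 16.8% of named genes. BaP 4 was the lowest of the 8 for 7 motile cilia genes and Control 4 for 10, compared with 11.5% and 14.6% of named genes. BaP 3 was above every control at 19 of the 26 genes, BaP 2 at 15, BaP 1 at 8 and BaP 4 at 1, compared with 26.3%, 26.9%, 18.9% and 16.8% of named genes. BaP 4 was below every control at 8 of the 26, compared with 19.2% of named genes. Averaged over the 26 genes as the difference from each gene's control mean, Control 1 to 4 were at 0.12, 0.14, -0.02 and -0.24, and BaP 1 to 4 were at 0.12, 0.45, 0.70 and -0.12. The SD was greater among BaP-exposed mice than among controls for 20 of the 27 genes, against 47.7% of named genes. For 22 of the 27, the difference between the groups was smaller than the SD among BaP-exposed mice. Within the slide rows, the mean difference over the 26 genes was 0.16 in row 1, with Control 1 and 2 and BaP 1 and 2, and 0.42 in row 2, with Control 3 and 4 and BaP 3 and 4.

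Other genes of motile cilia gave a like picture. Of 86 further axoneme and dynein assembly genes, 66 were tested, 54 were higher by mean in BaP-exposed mice and the median difference was 0.21. None was called by limma over all probes. An unadjusted p of 0.05 was reached by 10 of the 66, all of them higher, against 9.47% of named genes in both directions, and a 1.5-fold change by 4, against 1.42%, among them *Nek5*, *Cfap126* and *Iqub* at 0.86, 0.75 and 0.66. *Dnah7a*, an inner arm heavy chain, *Ropn1l*, a radial spoke protein gene, and *Cfap44*, needed for ciliary beating, were higher in BaP-exposed mice without overlap of the groups, with differences of 0.31, 0.34 and 0.40 (adjusted p of 0.497 to 0.522 from limma; exact permutation p = 0.0286, the smallest possible). That is 3 of 66 genes, against 2.81% of named genes higher without overlap. Per mouse, these 66 genes averaged 0.01, 0.13, 0.02 and -0.17 in Control 1 to 4 and 0.06, 0.35, 0.56 and -0.08 in BaP 1 to 4, the order of the BaP-exposed mice seen above. BaP 3 was the highest of 8 for 42 of the 66.

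Lists of genes that act before or beside the axoneme had smaller median differences, which were not tested against that of the axoneme genes. Of 15 genes of the multiciliated cell program, which amplifies centrioles and starts ciliogenesis, 11 were tested with a median difference of 0.03. Within it, *Ccno*, the cyclin O gene of multiciliated cells, was higher by 0.39 and *Rfx4* lower by 0.30 without overlap of the groups (adjusted p of 0.482 and 0.497 from limma). Of 26 intraflagellar transport genes, which all ciliated cells use, 24 were tested with a median of 0.02, and only *Dync2li1*, a subunit of the retrograde motor, did not overlap, at 0.37 (adjusted p = 0.497 from limma). These are 2 of 11 and 1 of 24 genes without overlap, against 5.37% of named genes. Of 6 ependymal genes outside the axoneme, all 6 were tested and had a median of -0.05. By mean 2 were higher and 4 lower, from *Nnat* at -0.30 to *Mia* at 0.63, and none was called by limma.

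Markers of the choroid plexus epithelium, a neighboring tissue of the ventricle wall, were likewise highest on average in BaP 3 and BaP 2. BaP 2 and BaP 3 were the 2 highest of the 8 mice for 22 of the 23 markers, all but *Ttr*. They were so for 13 of the 26 motile cilia genes and 12.9% of named genes. All 23 choroid plexus genes were tested and all 23 were higher by mean in BaP-exposed mice, with a median difference of 0.85. At 1.5-fold or more were 19 of them, yet 0 passed an unadjusted p of 0.05 in limma and 0 separated the groups. Of named genes, 50.5% were higher, 1.42% changed 1.5-fold, 9.47% passed that p and 5.37% did not overlap. As the difference from the control mean, their average was 0.51, -0.50, 0.84 and -0.84 in Control 1 to 4 and -1.24, 1.61, 2.03 and 0.96 in BaP 1 to 4. The sum of their ratios ran from 7.60 to 8.99 in controls and from 6.89 to 9.86 in BaP-exposed mice on the log2 scale. *Kcnj13*, a potassium channel gene of this epithelium, was 4.20, 2.74, 4.59 and 1.73 in the controls and 1.40, 5.91, 6.57 and 4.89 in the BaP-exposed mice. *Folr1*, *Kl*, *Otx2* and *Ttr* differed by 0.60, 0.85, 0.79 and 0.04, with adjusted p of 0.688 to 0.985 from limma, and none of the 23 markers was absent, each being well above background on at least 5 arrays. BaP 1 was thus the lowest mouse for choroid plexus genes, whereas its motile cilia genes averaged within the control range. In row 1 of the slide the choroid plexus average differed by 0.18 and in row 2 by 1.5. The part of choroid plexus tissue in the result for the motile cilia genes was not tested.

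Lists for meninges, thalamus, astrocytes, oligodendrocytes, microglia, endothelium and hippocampal neurons had median differences between -0.26 and 0.05. Within these lists the groups did not overlap at 1 of 5 endothelial genes, the tight junction gene *Cldn5* at -0.56 (adjusted p = 0.140 from limma). They also did not overlap at 1 of 6 oligodendrocyte genes, *Opalin* at 0.58 (adjusted p = 0.376 from limma). The remaining lists had 0 such genes each, and 5.37% of named genes did not overlap. All 5 erythroid genes tested were lower in BaP-exposed mice without overlap, against 5.37% of named genes without overlap in either direction, with a median of -0.94. The differences were -1.90 for *Hbb-bs*, -1.05 for *Alas2*, -0.94 for *Hba-a1*, -0.80 for *Hba-a2* and -0.59 for *Hbb-bt*. The first 2 were called by limma, where 0.0199% of named genes were, and near-identical globin copies can share a probe's signal. The erythroid average was -1.14, -1.23, -0.99 and -0.86 in BaP 1 to 4, below every control in all 4 mice.

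**Figure D3:**
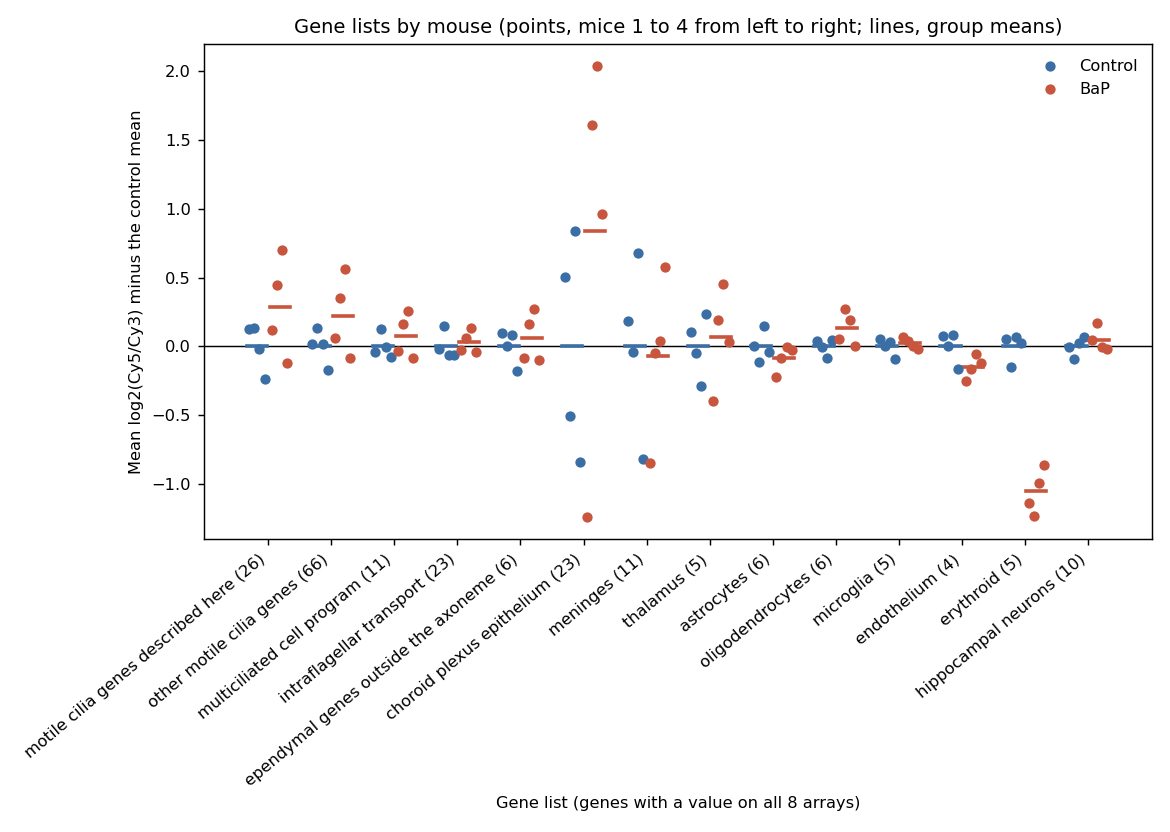
Mean log2(Cy5/Cy3) over the genes of each list minus the control mean, with 1 point per mouse and a line at each group mean (n = 4 each), and the number of genes in brackets. The 26 motile cilia genes of BaP 2 and BaP 3 lie at 0.45 and 0.70, above the controls, and the choroid plexus list spreads from -1.24 to 2.03 in BaP-exposed mice.

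After the values of each mouse were seen, the 26 motile cilia genes were set against the choroid plexus average over the 8 mice, 26 relations in all. As the same values had prompted the comparison, the correlations are a description, with no test. Pearson's r was at least 0.7 for 8 genes and under 0.3 for 12, with a median of 0.37, while over 14670 named genes outside the lists the median was 0.01 and 9.02% reached 0.7. *Pifo* had an r of 0.93 and a Spearman's rho of 0.90, *Drc7* 0.90 and 0.95, and *Tekt1* 0.87 and 0.90. *Foxj1* had an r of 0.62 and a rho of 0.40. *Tmem212* had r = 0.09 and *Meig1* r = -0.08, with rho of 0.10 and -0.10. Without the mice farthest from the median of the choroid plexus average, BaP 1 and Control 4, r was 0.95 for *Pifo*, 0.89 for *Drc7* and 0.86 for *Tekt1*, and all 8 genes stayed at 0.7 or above. All genes of a mouse share 1 array, and the 4 mice of a group or of a slide row are too few for a correlation within them.

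**Figure D4:**
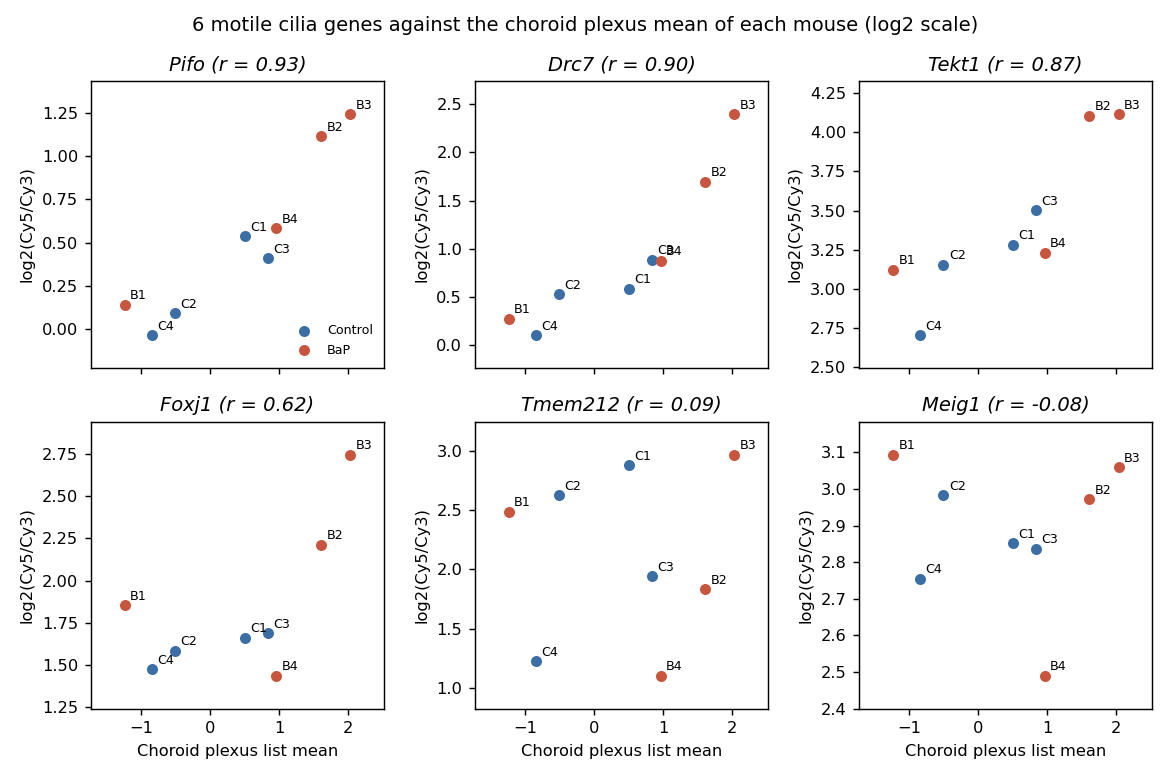
Log2(Cy5/Cy3) of 6 motile cilia genes (y axes, each on its own scale) against the choroid plexus average of the same mouse (x axis, log2 difference from the control mean), with 1 labeled point per control (C) or BaP-exposed (B) mouse. *Pifo*, *Drc7* and *Tekt1* rise along the axis across both groups, whereas *Tmem212* and *Meig1* scatter, with r of 0.09 and -0.08.

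The promoters of the genes, which played no part in their choice, were searched in the RefSeq promoter table of the mouse assembly GRCm38.p6, each window running from 250 bases before to 50 after a start. The table held 31 of the 35 genes in 37 windows. A single arm of the RFX X-box, GTTGCCA on either strand, was found in 21.6% of these windows, against 4.38% of all 32851. It occurred in 8 genes: *Dnah10*, *Hydin*, *Lrrc23*, *Mlf1*, *Pifo*, *Sntn*, *Tekt1* and *Zmynd10*. For the X-box with both arms, the arm was searched without its last base and with its middle base free. A pair of free bases joined it to its reverse complement, in which the matching base was also free. The arms could thus differ at that base, as they do in *Pifo*. This X-box was found in *Pifo* alone, or 2.70% of the windows against 0.451%, where it overlaps the single arm on the other strand. A forkhead motif, TGTTTAC, occurred in *Ak7*, *Mlf1* and *Sntn*, or 8.11% against 3.65%. Of the genes with a single arm, *Mlf1*, *Pifo* and *Tekt1* had differences of at least 0.48, whereas *Zmynd10* and *Hydin* differed by 0.20 and *Dnah10* by 0.00. The upstream stretches of *Mlf1*, *Pifo* and *Tekt1*, chosen after their values were seen as genes that hold a motif and were highest in BaP 2 and BaP 3, are printed along the strand of each gene with the motifs in capitals.
Mlf1, chr3:67373947-67374046, plus strand, -150 to -51 from the start: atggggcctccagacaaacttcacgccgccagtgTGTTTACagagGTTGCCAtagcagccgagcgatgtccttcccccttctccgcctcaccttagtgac
Pifo, chr3:106001498-106001597, minus strand, -100 to -1 from 1 of its starts: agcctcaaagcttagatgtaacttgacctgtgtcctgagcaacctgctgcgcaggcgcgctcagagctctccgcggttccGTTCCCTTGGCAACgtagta
Tekt1, chr11:72361883-72361982, minus strand, -100 to -1 from the start: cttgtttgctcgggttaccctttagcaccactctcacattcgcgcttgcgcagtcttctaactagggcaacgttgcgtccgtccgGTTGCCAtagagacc
In *Mlf1* the forkhead letters precede the RFX arm on the same strand, in *Pifo* the capitals span the X-box with both arms, and in *Tekt1* a single arm lies 15 bases before the start. A match says only that these letters occur in the window.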

How the data were processed

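Per the file headers, the arrays were read with Agilent Feature Extraction 11.0.1.1. For each spot the deposited scanner files hold an intensity per channel as a median, its local background, outlier marks and a flag for signal well above background. The authors also deposited log2 ratios, which their methods describe as LOWESS-normalized. Each column of that table correlated at 0.998 to 0.999 with the ratios computed here, at a slope of 0.992 to 1.02, and had a median of -0.05 to -0.03, so its scale is log2 and its direction Cy5 over Cy3. Its centering is not given in the sources used here, and it served as an alternative.

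With limma 3.58.1 (R 4.3.3), normexp (offset 50) was applied to spot medians. Control spots were dropped next and loess was run within arrays, outlier spots included. Outlier spots then became missing values and replicate spots were averaged to a probe value. A probe was tested if its Cy5 signal was well above background on 4 or more arrays and both groups had values, which held for 32600 of 55681. The comparison used lmFit and eBayes, a moderated form of the analysis of variance the methods name, with Benjamini-Hochberg adjustment over these probes and calls at an adjusted p of 0.05 with 1.5-fold. Exact permutation tests were 2-sided over mice. Python 3.11.15, pandas 2.3.3, numpy 2.4.6, scipy 1.17.1 and matplotlib 3.10.9 gave summaries and figures. The fits were tested on simulated data.

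Of 28685 probes with a RefSeq accession, 27235 were named through a RefSeq gene table of GRCm38.p6, used for names alone. Replicate numbers name mice and do not pair them. The genes and the 13 lists beside them (further motile cilia genes, multiciliated cell program, intraflagellar transport, other ependymal genes, and markers of 9 other tissues or cell types) were chosen with earlier results of these data known. The rule names *Foxj1*, *Rfx2*, *Rfx3* and any of the 35 genes without overlap or with at least 1.5-fold, with values per mouse, and 5 choroid plexus genes and any list gene with both. Of the latter, values per mouse are shown for *Kcnj13* alone. Any other gene was named with its values in view. The values of 1 further list gene are not reported here. Precision is limited by 4 arrays a group, and dim probes had little signal over background. The alternatives varied background correction, normalization, filters, channel, probe choice, test, blocks, source of the group label and the mice included, and slide row 2 alone was chosen after seeing the data.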

Additional observations from a re-analysis of the deposited data

Results flagged for a closer look

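Of 81 groups of 4 mice examined, 1 held a mouse far from the rest, where chance gives about 1 in 20, or 4.0. *Rsph4a*, a radial spoke gene, had a log2 ratio of 1.81 in Control 3, while the other controls lay between 1.35 and 1.41.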

How the results depend on the processing

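The count of motile cilia genes called by limma was 0 under all 25 alternatives. Genes at an unadjusted p of 0.05, 2 as reported, were 1 with the robust fit (8.58% of all probes), 0 with the gene-wise F test (8.19%), 1 with the scanner software's processed signals (8.11%), 6 with no background correction (9.26%), 9 with median centering (18.9%), 5 with the deposited log2 ratios (9.28%), 7 with the replicate block (7.3%), 5 with the 4 mice whose labels agree (6.95%) and 0 to 13 with a mouse left out (5.28% to 10.7%). Genes with 1.5-fold, 2 as reported, were 11 with processed signals (5.94% of all probes), 9 with median centering (1.83%), 8 in slide row 2 alone (2.55%), 1 with the filter on all arrays (1.02%) and 0 to 9 with a mouse left out (0.715% to 1.85%). Median centering moved the median of all probes to 0.17. Genes without overlap, 0 as reported, were 1 with Cy5 alone (4.72% of all probes), 11 with the 4 mice whose labels agree, 6 in slide row 2 alone and 0 to 4 with a mouse left out (6.7% to 10.8% of all probes). With 2 mice a group, 38.9% of all probes in the first of these subsets and 37.1% in the second do not overlap.

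Grouped by source name, 8 genes were higher, the median was -0.087, 1 gene had an unadjusted p of 0.05 (4.39% of all probes), 0 changed 1.5-fold (0.552%) and 1 did not overlap (2.72% of all probes). *Foxj1* was then at -0.050, *Drc7* at -0.36, *Dnah6* at -0.19, *Pifo* at -0.21, *Mlf1* at -0.32, *Tekt1* at -0.087 and *Rfx3* at 0.25. *Rfx3*, at -0.01 as reported, was also 0.046 with no background correction, 0.24 with processed signals, 0.086 with median centering and 0.059 with the deposited ratios. It was 0.18 as the mean of its probes, 0.24 with the 4 mice whose labels agree, -0.25 in slide row 2 alone and -0.080 to 0.090 with a mouse left out. *Tmem212*, at -0.07 as reported, was 0.018 with median centering, -0.33 with processed signals, -0.52 by source name, -0.59 with the 4 mice whose labels agree, 0.45 in slide row 2 alone and -0.38 to 0.26 with a mouse left out. *Fhad1* had the same sign under all 25 but was 0.016 by source name. The cause of these shifts was not tested.

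Same-numbered mice did not deviate together (correlations of -0.35 to 0.03), and no sample correlated best with its own number, so the 7 genes of the replicate block rest on shared numbers only. Spot means were not used, and that alternative was not run. Dim genes such as *Dnah10* and *Tekt2* had little signal over background on some arrays, and how far this limits their values was not tested. Their standard errors, 0.18 and 0.12, were below the median of 0.21 over the tested genes.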
